A study of Mus musculus with 8 samples.

Results

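TRBV16, the mouse beta chain variable segment also called Vbeta11, was followed through the T cell receptors of brain immune cells. Its members were the cells with a productive TRB contig assigned to TRBV16 in the 4 receptor libraries, 754 of 6509 cells with any productive TRB. By the deposited clonotypes these cells formed 278 of 4344 clones. TRBV16 was chosen by the sizes of its clones and its share of cells in these same libraries, so both are given as descriptions without a test.

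The cells were sorted as CD45+ from brain parenchyma of C57BL/6 mice, 2 libraries from 5xFAD;Cxcr6-/- mice and 2 from 5xFAD mice. Both groups carry the 5xFAD transgenes, which are expressed in neurons under the Thy1 promoter and give a mouse model of the amyloid deposits of Alzheimer's disease. The 5xFAD;Cxcr6-/- mice also lack Cxcr6, a chemokine receptor of tissue-resident T cells, and neither age nor sex is given in the labels. Whether the libraries of a genotype are separate mice or pools is also not given, so a p-value here reflects only the spread among these 4 libraries, which may be technical.

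A beta chain gene is assembled in the thymus from a V, a D and a J segment, and an alpha chain gene from a V and a J segment. Bases are trimmed and added at the joints, so the CDR3 loop that spans them marks a clone, a T cell and its progeny. A segment can therefore hold many cells either because many clones use it or because a few clones that use it have grown.

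The 5xFAD;Cxcr6-/- libraries had 745 and 1304 cells with a productive TRB, against 2022 and 2438 in the 5xFAD libraries. Total UMIs (counted molecules, all productive chains) were 13460 and 22340 in the 5xFAD;Cxcr6-/- libraries and 32169 and 34772 in the 5xFAD libraries. The libraries shared 0 to 12 cell barcodes per pair, 28 over the 6 pairs, and in 2 of these 28 both cells carried TRBV16. Clones were counted within a library only, so shared barcodes join no clones. Intervals and limits of 0 counts below cover counting error only.

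Trbv16 lies on chromosome 6 (GRCm38, chr6:41151740-41152230, plus strand, annotated as TR_V_gene), with exon 1 at 41151740 to 41151839 and exon 2 at 41151933 to 41152230. The last 17 bases of exon 2, at 41152214 to 41152230, encode the V part of the CDR3. They are shown first because every member starts from them, followed by the beta CDR3 of the largest TRBV16 clone of each library and of the next large clones in 5xFAD. Capitals mark bases that match neither the germline V nor the germline J segment.
germline TRBV16: tgtgcaagcagcttaga
5xFAD;Cxcr6-/- library 1, 7 cells, TRBJ2-5: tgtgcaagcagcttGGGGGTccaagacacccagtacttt
5xFAD;Cxcr6-/- library 2, 10 cells, TRBJ2-1: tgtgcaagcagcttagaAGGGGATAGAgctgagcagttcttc
5xFAD library 1, 254 cells, TRBJ2-1: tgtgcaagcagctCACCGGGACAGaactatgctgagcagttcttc
5xFAD library 1, 16 cells, TRBJ1-1: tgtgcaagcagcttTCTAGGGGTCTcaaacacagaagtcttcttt
5xFAD library 2, 76 cells, TRBJ2-4: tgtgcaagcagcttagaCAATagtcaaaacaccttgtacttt
5xFAD library 2, 42 cells, TRBJ2-7: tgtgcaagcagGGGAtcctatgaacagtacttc
5xFAD library 2, 12 cells, TRBJ2-7: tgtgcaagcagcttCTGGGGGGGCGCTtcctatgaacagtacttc

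These 7 chains used 5 J segments and differed in their central bases. The largest clone of 5xFAD library 1 kept 13 of the 17 germline V bases and had 11 bases from neither segment, 7 of them a run shared with the diversity segment TRBD1. The largest clone of 5xFAD library 2 kept all 17 V bases and had 4 bases from neither segment. The second clone of that library kept 11 V bases and also had 4 such bases.

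TRBV16 took a similar share of clones in every library and a larger share of cells in the 5xFAD libraries. It was used by 35 of 555 clones (6.31%, 95% Clopper-Pearson interval 4.43 to 8.66) and 63 of 1028 clones (6.13%, 4.74 to 7.77) in the 5xFAD;Cxcr6-/- libraries. In the 5xFAD libraries it was used by 78 of 1272 clones (6.13%, 4.88 to 7.59) and 102 of 1489 clones (6.85%, 5.62 to 8.25). The 4 clone shares overlap within counting error. In the test of clones per segment between genotypes, 2 of 152 segments were called (1.32%), and TRBV16 was not one of them, with a log2 fold change of -0.07 (SE 0.19, edgeR quasi-likelihood adjusted p = 0.946), 5xFAD;Cxcr6-/- over 5xFAD.

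Of cells, TRBV16 held 46 of 745 (6.17%, 4.56 to 8.15) and 75 of 1304 (5.75%, 4.55 to 7.16) in the 5xFAD;Cxcr6-/- libraries. In the 5xFAD libraries it held 367 of 2022 (18.2%, 16.5 to 19.9) and 266 of 2438 (10.9%, 9.70 to 12.2). Both 5xFAD values lie above both 5xFAD;Cxcr6-/- values. The means were 5.96% ± 0.299 in 5xFAD;Cxcr6-/- and 14.5% ± 5.12 in 5xFAD (SD, n = 2 each).

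**Figure D1:**
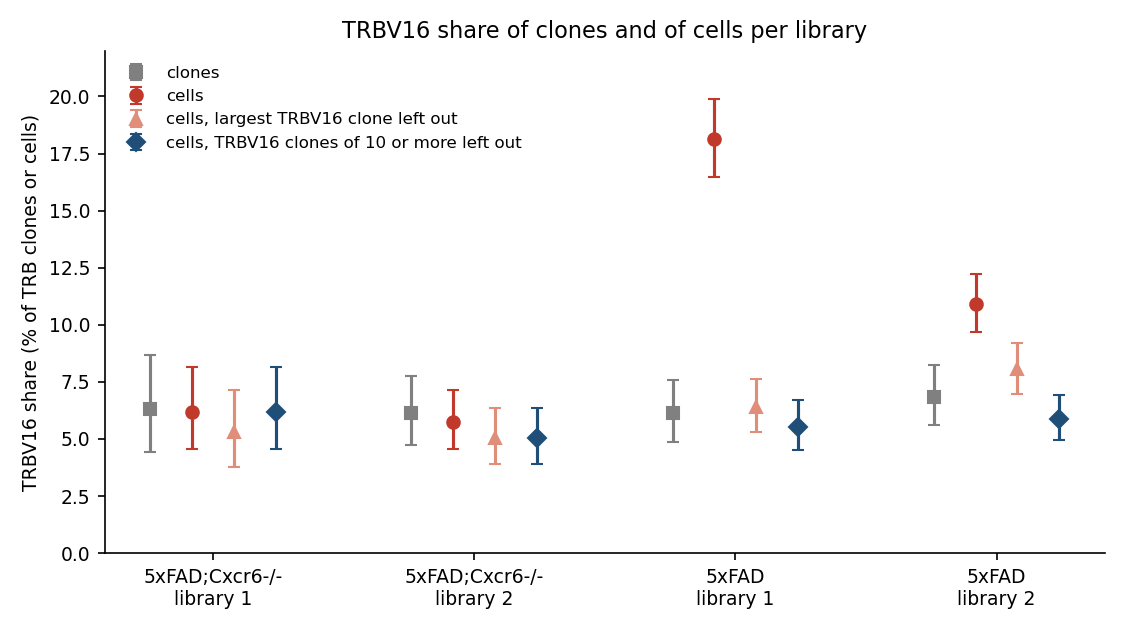
TRBV16 share per library, in percent of clones (grey squares) or of cells with a productive TRB (circles), and of cells after the largest TRBV16 clone (triangles) or every TRBV16 clone of 10 or more cells (diamonds) was left out; bars are 95% Clopper-Pearson intervals. Clone shares lie between 6.13% and 6.85% in the 4 libraries, and cell shares reach 18.2% and 10.9% only in the 5xFAD libraries.

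A few clones held the difference in cells. The largest TRBV16 clones had 7 and 10 cells in the 5xFAD;Cxcr6-/- libraries and 254 and 76 cells in the 5xFAD libraries. The clone of 254 cells made up 12.6% (11.1 to 14.1) of all TRB cells of 5xFAD library 1 and 69.2% of its TRBV16 cells. The clone of 76 cells made up 3.12% (2.46 to 3.89) of all TRB cells and 28.6% of the TRBV16 cells of 5xFAD library 2.

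With the largest TRBV16 clone of each library left out, TRBV16 held 5.28% and 5.02% of cells in the 5xFAD;Cxcr6-/- libraries and 6.39% and 8.04% in the 5xFAD libraries. The groups still did not overlap, and the difference of means was -2.06 percentage points, against -8.57 with all clones. With each library's largest clone of any segment left out the groups overlapped, at 6.63% and 5.89% in 5xFAD;Cxcr6-/- and 6.39% and 8.04% in 5xFAD. This removed TRBV16 cells only in 5xFAD. In the 5xFAD;Cxcr6-/- libraries the largest clones used TRBV17 (51 cells) and TRBV10 (31 cells), so their removal raised the TRBV16 share. With every TRBV16 clone of 10 or more cells left out, the shares were 6.17% and 5.02% in 5xFAD;Cxcr6-/- and 5.54% and 5.89% in 5xFAD. These groups also overlapped, with a difference of -0.12 percentage points. This cut is a fixed cell number, so it is unequal over libraries of 745 to 2438 TRB cells. It took out TRBV16 clones only, and large clones of other segments stayed in. It left out 0 clones in 5xFAD;Cxcr6-/- library 1, whose largest TRBV16 clone held 0.94% of TRB cells. In 5xFAD it left out clones down to 16 and 12 cells, of 2022 and 2438 TRB cells.

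Below these clones the sizes were small in every library. The median TRBV16 clone had 1 cell in all 4 libraries. Clones of 2 or more cells, called expanded, were 5 of 35 (14.3%, 4.81 to 30.3) and 3 of 63 (4.76%, 0.993 to 13.3) TRBV16 clones in the 5xFAD;Cxcr6-/- libraries. In the 5xFAD libraries they were 12 of 78 (15.4%, 8.21 to 25.3) and 24 of 102 (23.5%, 15.7 to 33.0). A clone is likelier to reach 2 cells in a library with more cells, and the 5xFAD libraries had more. Expected at 745 cells, the number in the smallest library, the TRBV16 shares were 14.3% and 5.21% in the libraries lacking Cxcr6. In the 5xFAD libraries they were 15.2% and 17.4% at that number.

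Among clones of other TRBV segments the expanded share was 11.7% and 10.4% in the 5xFAD;Cxcr6-/- libraries and 10.7% and 15.9% in the 5xFAD libraries. Expected at 745 cells, it was 11.7% and 8.56% in the libraries lacking Cxcr6 and 9.41% and 12.8% in the 5xFAD libraries. TRBV16 clones thus stood above other clones in 3 of 4 libraries and below them in 5xFAD;Cxcr6-/- library 2. In each of the 4 libraries the TRBV16 interval held the value of the other clones. Without the largest TRBV16 clone the TRBV16 shares, at full cell number, were 11.76% and 3.23% in 5xFAD;Cxcr6-/- and 14.3% and 22.8% in 5xFAD. In 5xFAD;Cxcr6-/- library 1 the other clones had 11.73%, so its lead there rested on 1 clone. Clones of 10 or more cells were 0 of 35 and 1 of 63 TRBV16 clones in 5xFAD;Cxcr6-/- and 2 of 78 and 3 of 102 in 5xFAD. With other segments they were 2 of 520 and 5 of 965 clones in 5xFAD;Cxcr6-/- and 17 of 1194 and 19 of 1387 in 5xFAD. This cut is a fixed cell number, and the 5xFAD libraries had more cells.

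**Figure D2:**
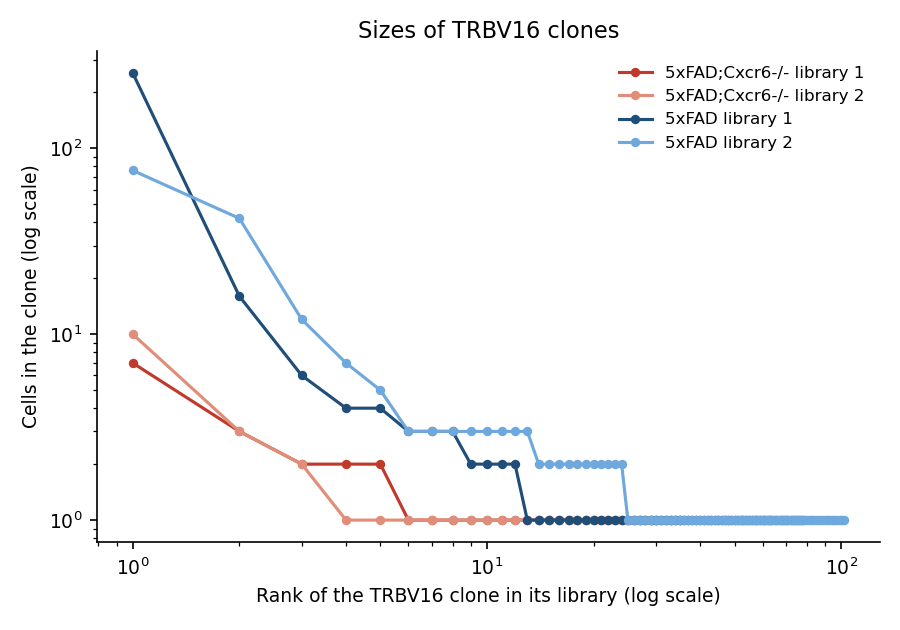
Cells per TRBV16 clone (log scale) against the rank of the clone in its library (log scale), 1 line per library. The 5xFAD lines start at 254 and 76 cells and the 5xFAD;Cxcr6-/- lines at 7 and 10, and all 4 end in clones of 1 cell.

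The share of cells divided by the share of clones was 0.979 and 0.939 for TRBV16 in the 5xFAD;Cxcr6-/- libraries and 2.96 and 1.59 in the 5xFAD libraries. Among 22 TRBV segments with at least 10 clones, TRBV16 ranked 7 and 10 in the 5xFAD;Cxcr6-/- libraries and 1 and 2 in the 5xFAD libraries. Only TRBV16 and TRBV26 had both 5xFAD;Cxcr6-/- values below 1 and both 5xFAD values above 1. Without the largest TRBV16 clone the ratios were 0.861 and 0.832 in 5xFAD;Cxcr6-/- and 1.05 and 1.19 in 5xFAD. Each library's largest clone of any segment used TRBV16 only in 5xFAD. With these clones left out the ratios were 1.05 and 0.960 in 5xFAD;Cxcr6-/- and 1.05 and 1.19 in 5xFAD. The genotypes then no longer lay on opposite sides of 1. Without TRBV16 clones of 10 or more cells all 4 ratios were below 1, at 0.979 and 0.832 in 5xFAD;Cxcr6-/- and 0.925 and 0.884 in 5xFAD. Clones of that size in other segments stayed in, 2 and 5 in 5xFAD;Cxcr6-/- and 17 and 19 in 5xFAD. Leaving out large clones of TRBV16 alone can only lower its ratio, so these values do not set TRBV16 against equally trimmed segments.

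The segments whose ratios were most like those of TRBV16, by Euclidean distance of the log2 ratios over the 4 libraries, were TRBV26 (distance 1.57), TRBV12-1 (1.60) and TRBV3 (1.64). TRBV26 had ratios of 0.828 and 0.807 in 5xFAD;Cxcr6-/- and 1.10 and 1.08 in 5xFAD. Ratios of this size were also seen for other segments and in 5xFAD;Cxcr6-/-, each with a large clone. TRBV23 had 6.11 and TRBV17 had 4.54 in 5xFAD;Cxcr6-/- library 1, with largest clones of 37 and 51 cells, and TRBV12-2 had 2.06 in 5xFAD library 2, with a largest clone of 68 cells. These segments were picked after their values were seen.

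**Figure D3:**
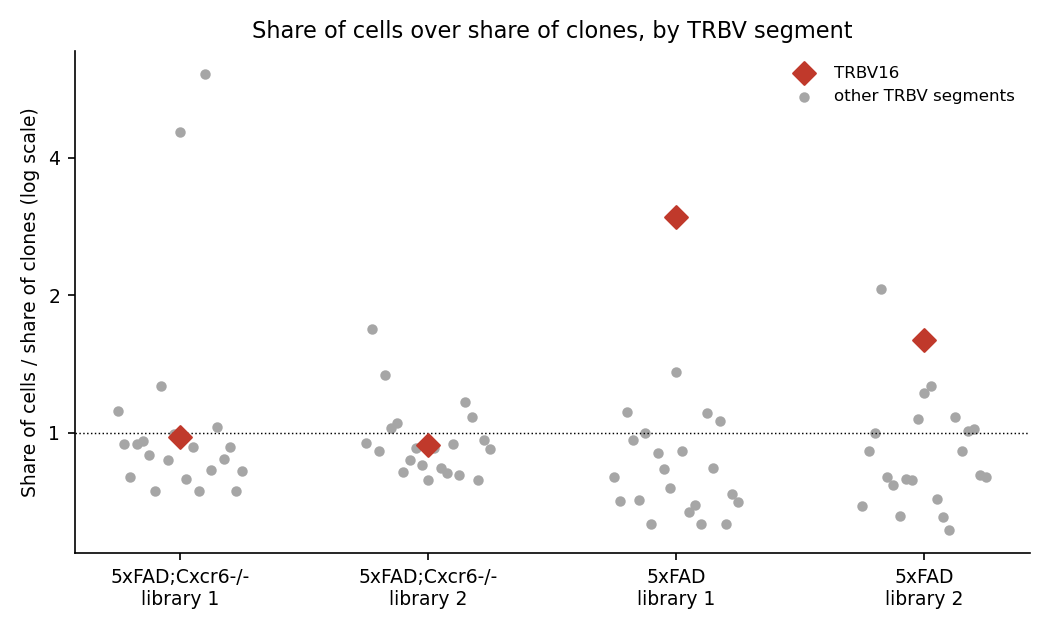
Share of cells over share of clones (log scale) for 22 TRBV segments in each library, with TRBV16 as a diamond, other segments as grey dots and a dotted line at 1. TRBV16 lies at 2.96 and 1.59 in the 5xFAD libraries and at 0.979 and 0.939 in the 5xFAD;Cxcr6-/- libraries.

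Clones were joined to J segments across both J clusters. TRBJ2-7 was the commonest J segment of TRBV16 clones, with 7 of 35 (20%) and 15 of 63 (23.8%) in 5xFAD;Cxcr6-/- and 24 of 78 (30.8%) and 28 of 102 (27.5%) in 5xFAD. Clones of other segments used TRBJ2-7 at 21.7% and 19.5% in 5xFAD;Cxcr6-/- and 21.4% and 21.4% in 5xFAD. The log2 fold change of TRBJ2-7, TRBV16 over other clones with the library as a block, was 0.34 (SE 0.11, edgeR adjusted p = 0.96), higher with TRBV16 in 3 of 4 libraries.

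TRBJ1-1 followed with 31 TRBV16 clones, TRBJ2-1 and TRBJ2-5 with 28 each and TRBJ2-4 with 25. The other 7 J segments had 6 to 18 TRBV16 clones. TRBJ2-3 had 13, a log2 fold change of -0.76 (SE 0.35, adjusted p = 0.96), and of -0.39 without 5xFAD library 1. TRBJ2-3, TRBJ2-1 and TRBJ2-5 each had a lower share than in other clones in all 4 libraries. These 3 were called lower with TMM scaling, TRBJ2-3 at a log2 fold change of -1.50 (edgeR adjusted p = 0.015), where the median of all segments was -0.67. By cells the order followed the large clones. TRBJ2-1 held 71.7% of TRBV16 cells in 5xFAD library 1 and 7.96% without the largest clone.

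In 5xFAD library 2, TRBJ2-4 held 31.6% of TRBV16 cells and 4.21% without the largest clone.

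**Figure D4:**
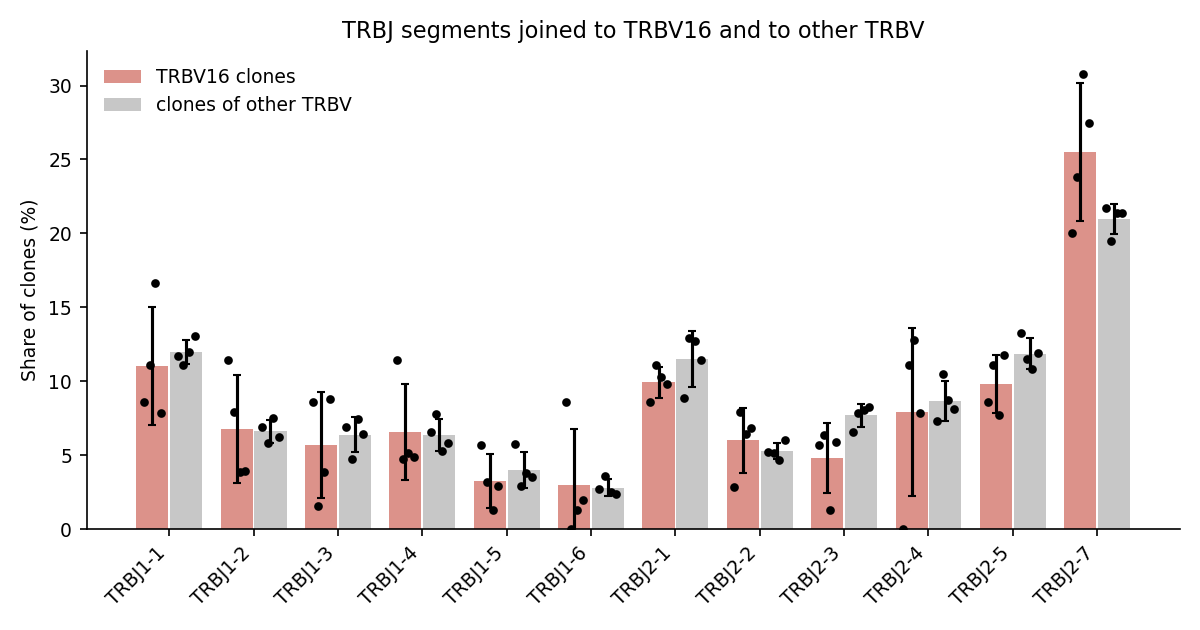
Share of TRBV16 clones and of clones with other TRBV segments (percent) that used each TRBJ segment; bars are means and error bars SD over 4 libraries, and points are libraries. TRBJ2-7 averaged 25.5% with TRBV16 and 21.0% with other segments.

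Few TRBV16 clones had the alpha chain of invariant natural killer T cells. These cells recognise lipids presented by CD1d, and in mice their alpha chain joins TRAV11 or TRAV11D to TRAJ18. Such an iNKT-like chain was found in 0 of 29 and 0 of 54 TRBV16 clones with an alpha chain in the 5xFAD;Cxcr6-/- libraries, which allows up to 10.3% and 5.56%. It was found in 4 of 60 (6.67%, 1.85 to 16.2) and 1 of 85 (1.18%, 0.0298 to 6.38) in the 5xFAD libraries.

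Among clones of other segments the iNKT-like share was 5.43% and 2.66% in 5xFAD;Cxcr6-/- and 21.1% and 14.03% in 5xFAD. The TRBV16 share was lower in each of the 4 libraries. Of the 5 iNKT-like TRBV16 clones, each of 1 cell, 4 held a second productive beta chain of another segment. The usual beta partners of mouse iNKT cells are TRBV13, TRBV29 and TRBV1.

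In the test of J and alpha segments with TRBV16 against other clones, 2 of 130 segments were called (1.54%), both lower with TRBV16. TRAV11 had a log2 fold change of -2.27 (SE 0.38, edgeR adjusted p = 4.33e-05) and TRAJ18 of -1.60 (SE 0.29, edgeR adjusted p = 0.000676), each with a lower share in 4 of 4 libraries. DESeq2 called 0 segments (3 at an unadjusted p below 0.05). Without 5xFAD library 2 edgeR also called 0 segments (4 at an unadjusted p below 0.05), and without 5xFAD library 1 it called TRAV11 alone. The log2 fold changes of TRAV11 and TRAJ18 were -2.38 and -1.46 with DESeq2 on the clone totals, -2.07 and -1.51 without 5xFAD library 2, and -2.92 and -1.39 without 5xFAD library 1.

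Other alpha segments were spread widely. The 228 TRBV16 clones with an alpha chain used 77 TRAV and 43 TRAJ segments. TRAV16N was used by 13 of them, TRAV7D-2 by 9, TRAJ30 by 17, TRAJ22 by 16 and TRAJ27 by 12. TRAV7N-6 and TRAJ30 had the smallest p-values of those higher with TRBV16, with log2 fold changes of 1.97 (SE 0.92) and 0.93 (SE 0.49), both at an edgeR adjusted p of 0.96. Of the 5 TRAV7N-6 clones with TRBV16, 4 were in 5xFAD library 1, and without that library its log2 fold change was 0.14. TRAV segments include near-identical copies, so the deposited assignment between copies is uncertain.

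The alpha CDR3s of the large clones in which an alpha chain was read are shown, with capitals as above. Clone sizes also count cells in which only the beta chain was read. The 16-cell clone of 5xFAD library 1 had an alpha chain in 0 of its cells and is not listed.
5xFAD;Cxcr6-/- library 1, 7 cells, TRAV6-7-DV9 and TRAJ52: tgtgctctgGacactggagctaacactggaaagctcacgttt
5xFAD;Cxcr6-/- library 2, 10 cells, TRAV16N and TRAJ15: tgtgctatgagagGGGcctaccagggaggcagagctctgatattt
5xFAD library 1, 254 cells, TRAV9D-3 and TRAJ22: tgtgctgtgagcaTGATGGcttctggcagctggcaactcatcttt
5xFAD library 2, 76 cells, TRAV9-1 and TRAJ38: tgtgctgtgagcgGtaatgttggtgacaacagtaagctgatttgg
5xFAD library 2, 42 cells, TRAV12-2 and TRAJ47: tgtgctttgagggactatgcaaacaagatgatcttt
5xFAD library 2, 12 cells, TRAV16N and TRAJ27: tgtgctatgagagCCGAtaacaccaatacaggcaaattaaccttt

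In each of these clones a single alpha chain was seen. It was read in 6 of 7 and 10 of 10 cells of the largest clones in 5xFAD;Cxcr6-/- and in 189 of 254 and 57 of 76 cells in 5xFAD. Each of these 4 beta chains lay in a single clonotype, and 0 of their 347 cells had a second productive beta chain, which allows up to 0.865%. In TRBV16 clones of 1 cell 13.2% had a second beta chain, and in the other expanded TRBV16 clones 2.89% did. Clonotypes are formed from the chains read, so a second chain can itself place a cell in a separate clonotype. How far this sets the difference was not tested. Over all TRBV16 cells the share was 6.52% and 10.7% in 5xFAD;Cxcr6-/- and 3.27% and 4.89% in 5xFAD. Cells with other segments had 8.30% and 3.82% in 5xFAD;Cxcr6-/- and 4.23% and 3.45% in 5xFAD, so TRBV16 was higher in 2 libraries and lower in the other two.

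The largest clones of both 5xFAD libraries used segments of the TRAV9 family, a feature picked after their values were seen. By clones the TRAV9 family had 10.3% and 7.41% of TRBV16 clones with an alpha chain in 5xFAD;Cxcr6-/- and 10.0% and 16.5% in 5xFAD. In clones of other segments it had 9.73% and 8.84% in 5xFAD;Cxcr6-/- and 8.95% and 9.97% in 5xFAD.

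Some beta chains were divided over several deposited clonotypes. The numbers of distinct TRBV16 beta chains were 31 and 63 in 5xFAD;Cxcr6-/- and 69 and 96 in 5xFAD, and 2, 0, 4 and 5 of them lay in more than 1 clonotype. The TRBJ1-1 chain of 5xFAD library 1 was in 24 cells and 7 clonotypes. In 5 of these cells an alpha chain was read, each a different one, and 4 cells had a second beta chain. The TRBJ2-7 chain of the 12-cell clone of 5xFAD library 2 was in 24 cells and 3 clonotypes. All 17 of its cells that had an alpha chain held TRAV16N with TRAJ27, and 1 also held TRAV4-4-DV10 with TRAJ30.

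CDR3 loops of TRBV16 clones had a mean length of 14.1 and 14.05 amino acids in 5xFAD;Cxcr6-/- and 14.3 and 13.9 in 5xFAD. Clones of other segments averaged 13.8 and 13.9 in 5xFAD;Cxcr6-/- and 14.03 and 13.9 in 5xFAD. The mean difference was 0.186 ± 0.143 amino acids (SD, n = 4 libraries, exact two-sided sign-flip permutation p = 0.25), where the smallest p that 4 libraries allow is 0.125. Bases from neither segment averaged 8.87 and 10.3 per distinct TRBV16 chain in 5xFAD;Cxcr6-/- and 10.9 and 10.1 in 5xFAD.

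TRBV16 chains of different clones were rarely alike. Of 33411 pairs among 259 distinct chains of the 4 libraries, 19 had CDR3s of the same length with at most 1 different amino acid, and all 19 shared the J segment. Of these, 8 lay within a library and 11 across libraries, and 0 of the 11 were identical in amino acids. Within libraries the near-identical share of chain pairs was 0.0858% for TRBV16, rank 9 of 22 segments, against a median of 0.0756% and a range of 0 to 0.145% in the other 21. Counted by deposited clonotypes the share was 0.449%, rank 3 of 22, against a median of 0.210% in the others. Of those 48 TRBV16 pairs 43 were identical in amino acids. Among distinct chains only 3 pairs were, so most of the 43 paired a beta chain with itself, divided over several clonotypes.

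In 2 of the 19 pairs both cells also shared the alpha V and J segments, and these pairs are shown with both chains, together with the pair that holds the 76-cell clone. They were picked after their values were seen. Amino acid positions are counted from 1 at the first CDR3 residue.
5xFAD;Cxcr6-/- library 1, 1 cell, TRBJ1-1, beta: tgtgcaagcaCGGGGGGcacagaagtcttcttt
5xFAD library 2, 2 cells, TRBJ1-1, beta: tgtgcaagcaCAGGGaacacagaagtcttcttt
5xFAD;Cxcr6-/- library 1, 1 cell, TRAV6-6 and TRAJ27, alpha: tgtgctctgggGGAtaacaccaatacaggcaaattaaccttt
5xFAD library 2, 2 cells, TRAV6-6 and TRAJ27, alpha: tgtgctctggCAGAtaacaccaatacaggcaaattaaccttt
5xFAD library 1, 1 cell, TRBJ2-7, beta: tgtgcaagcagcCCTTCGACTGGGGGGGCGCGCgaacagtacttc
5xFAD library 1, 1 other cell, TRBJ2-7, beta: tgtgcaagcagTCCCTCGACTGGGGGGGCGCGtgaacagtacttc
5xFAD library 1, both cells, TRAV14N-3 and TRAJ22, alpha: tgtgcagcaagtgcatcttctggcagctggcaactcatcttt
5xFAD library 2, 1 cell, TRBJ2-4, beta: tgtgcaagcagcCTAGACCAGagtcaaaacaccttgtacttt
5xFAD library 2, 76 cells, TRBJ2-4, beta: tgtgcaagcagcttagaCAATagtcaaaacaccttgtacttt

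The first pair joined libraries of different genotypes, with no shared cell barcode. Its beta chains differed by 3 bases and by G6N, and its alpha chains by 2 bases and by G4A, each from 5xFAD;Cxcr6-/- to 5xFAD. The second pair lay in 5xFAD library 1, where the beta chains differed by 3 bases and by no amino acid and the alpha chains shown by no base. Each of its cells also held another alpha chain, TRAV6-6 with TRAJ15 in the first and TRAV7D-5 with TRAJ16 in the other. A further chain of 1 cell in this library had the same beta amino acids. It differed by 2 bases from each of the pair, and no alpha chain was read with it. The TRBJ2-4 pair differed by 3 bases and by Q7N, from the single cell to the large clone, and its alpha chains were of other segments, TRAV5-1 with TRAJ21 in the single cell and TRAV9-1 with TRAJ38 in the large clone. The clone of 254 cells had no such neighbour, and its closest chain of the same length differed at 3 positions.

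TRBV16 contigs carried more UMIs than other beta contigs in every library. The median was 14.5 and 14 UMIs for TRBV16 in 5xFAD;Cxcr6-/-, against 10 and 10 for other segments. In 5xFAD it was 16 and 12 for TRBV16, against 9 and 8 for other segments. The mean difference was 4.88 ± 1.44 UMIs (SD, n = 4 libraries), higher in 4 of 4 libraries, with an exact two-sided sign-flip permutation p of 0.125, the smallest possible.

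TRBV16 ranked 3 of 22 segments by median UMIs in each library. Among clones of 1 cell the medians were 13 and 15 UMIs for TRBV16 against 10 and 11 for other segments in 5xFAD;Cxcr6-/-. They were 12 and 12 for TRBV16 against 9 and 8 in 5xFAD. Part of the difference was thus present outside the large clones, and whether it alters the recovery of TRBV16 cells was not tested.

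**Figure D5:**
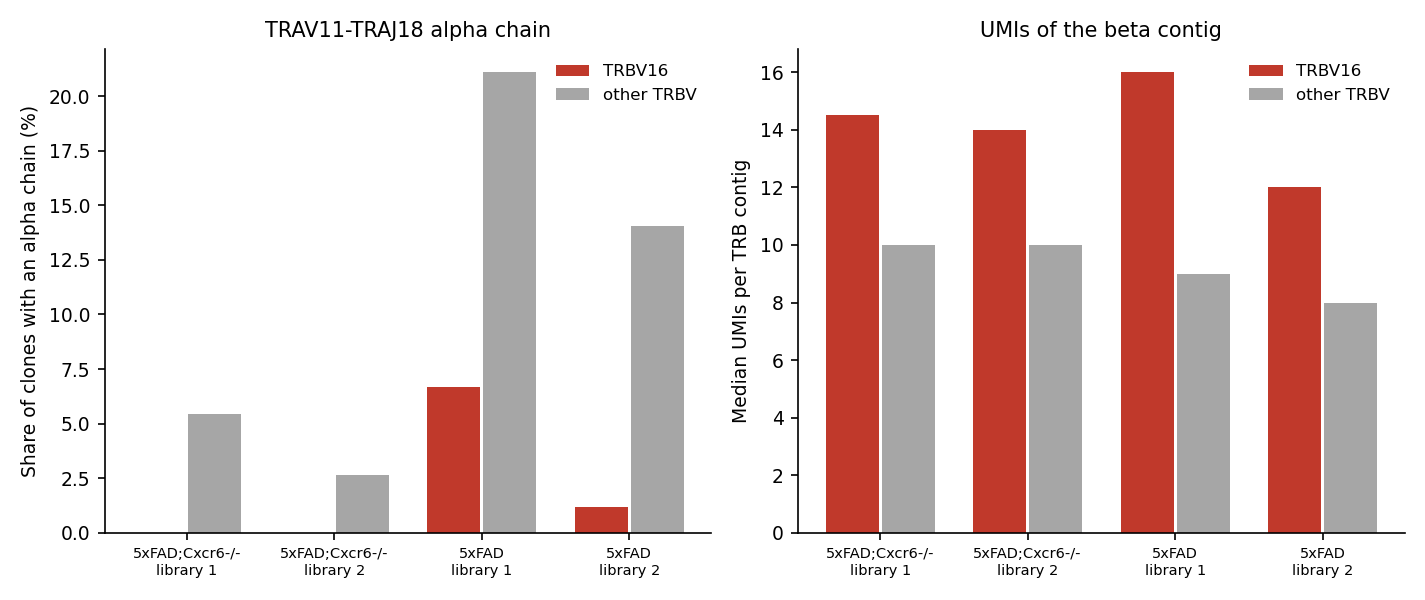
Left, share of clones with an alpha chain (percent) whose alpha chain joined TRAV11 or TRAV11D to TRAJ18; right, median UMIs per beta contig; bars are single libraries, TRBV16 beside other TRBV segments. The alpha share is lower with TRBV16 in each library (0% and 0% in 5xFAD;Cxcr6-/-, 6.67% and 1.18% in 5xFAD), and median UMIs are higher with TRBV16 in each.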

How the data were processed

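Receptor contigs of 4 libraries were analysed, and the gene expression samples were not used here. The submitters' processing notes name Cell Ranger 6.0 and mm10. The deposited contig tables hold read and UMI counts for each contig, not normalized, per the file headers. A clone was a deposited clonotype with a productive TRB. Clones per segment were tested with edgeR 4.0.16 (quasi-likelihood, R 4.3.3), with each library's log clone number as offset, segments with at least 10 clones and Benjamini-Hochberg adjustment at 0.05 over all of them. The SE is the absolute log2 fold change divided by the square root of F. DESeq2 1.42.0 was an alternative. CDR3 lengths and UMIs were compared with exact sign-flip tests over libraries. Germline V and J sequences came from GENCODE vM21 on GRCm38, which mm10 names. The code was tested on simulated data. The segment, lists and tests were chosen with earlier results of these data known. Named items were TRBV16, all TRBJ, called segments plus the 3 of each direction with the smallest p, the 3 commonest TRAV and TRAJ, and the 3 largest TRBV16 clones per library. Items picked after their values were seen are marked where they appear. Alternatives covered the clone definition, cells and contigs used, the segment model, large clones and each library left out.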

Additional observations from a re-analysis of the deposited data

Results flagged for a closer look

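The share of cells over the share of clones of TRBV16 was below 1 in both 5xFAD;Cxcr6-/- libraries (0.979 and 0.939) and above 1 in both 5xFAD libraries (2.96 and 1.59). It was flagged because all libraries of one genotype lie on one side of 1 and all of the other on the opposite side. Among 22 segments TRBV26 also had this split (0.828 and 0.807 in 5xFAD;Cxcr6-/-, 1.10 and 1.08 in 5xFAD). For TRBV16 the pattern stayed without its largest clone in each library (0.861 and 0.832 in 5xFAD;Cxcr6-/-, 1.05 and 1.19 in 5xFAD). This step can only lower the TRBV16 ratio, so the 5xFAD;Cxcr6-/- values had to stay below 1, and only the 5xFAD values could change side. Each library's largest clone of any segment used TRBV16 only in the 5xFAD libraries. With these clones left out the pattern was lost (1.05 and 0.960 in 5xFAD;Cxcr6-/-, 1.05 and 1.19 in 5xFAD). It was also lost without TRBV16 clones of 10 or more cells (0.979 and 0.832 in 5xFAD;Cxcr6-/-, 0.925 and 0.884 in 5xFAD). Clones of that size in other segments stayed in, so this cut can only lower the TRBV16 ratio. The mean log2 ratio differed by -1.18, 5xFAD;Cxcr6-/- minus 5xFAD, and this difference was not tested, because clone size chose the segment.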

How the results depend on the processing

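TRBV16's clone share was not called between genotypes under any of 18 alternatives. Without 5xFAD replicate 2 its sign turned (log2 0.016, range over left-out libraries -0.143 to 0.016). With cells counted in place of clones the log2 fold change was -1.28. This value is given as a description only, because clone size chose the segment and enters the count of cells. With a replicate block the clone share had a log2 fold change of -0.081 (edgeR adjusted p = 0.9). The numbers were not taken as pairs, since deviations of same-numbered libraries correlated at -0.047 over 152 segments. TMM moved the median of all segments in that test to 0.03, against 0.19, and in the test with TRBV16 to -0.67, against 0.09. The genotype difference in the share of cells was -2.06, -0.96, -1.11 and -0.12 percentage points without the largest TRBV16 clone, without each library's largest clone, without the 2 largest TRBV16 clones (added after seeing the data) and without TRBV16 clones of 10 or more cells. With a library left out it ranged from -12.2 to -4.95. Segments called with TRBV16 were 2 in the main test, 5 with TMM (5 lower, TRBJ2-1, TRBJ2-3 and TRBJ2-5 added), 1 with at least 3 UMIs, 0 for TRBJ alone, 0 without iNKT-like and MAIT-like clones, which removes them by construction, and 0 to 2 with a library left out. DESeq2 called 0 of 130 (3 at unadjusted p below 0.05) with either size factor. The mean dispersion was run first. The default dispersion trend was added after those results were seen, and also called 0 there. Between genotypes DESeq2 called 0 of 152 segments with the mean dispersion and 2 with the default trend, TRBV16 in neither. Without iNKT-like clones TRAJ18 was 0.048. Of segments that were not called, TMM turned TRBJ2-7 (-0.45), TRAV7D-2 (-0.38), TRAJ27 (-0.30) and TRAJ22 (-0.65). TRAJ22 also turned with 2-TRB cells left out (-0.0022), at least 3 UMIs (-0.052), no iNKT-like clones (-0.0019), DESeq2 with mean dispersion (-0.028 with both size factors). With a library left out TRAV7N-6 ranged from 0.14 to 2.60, TRBJ2-3 from -0.95 to -0.39, TRAV12-2 from -0.51 to 0.37, TRAJ22 from -0.32 to 0.46 and TRAJ27 from -0.15 to 0.83. The CDR3 difference was 0 for medians. The cause of these changes was not tested.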
